A study of Mus musculus with 48 samples.

Results

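The mitochondrial genome of the mouse holds 37 genes, and their transcripts are described here gene by gene in punches of the amygdala. The members were all genes of the deposited table whose symbol starts with mt-, 37 of 52636 genes. Of these 13 encode proteins, 2 encode ribosomal RNAs and 22 encode transfer RNAs, and each lies on chromosome M of GRCm38. The libraries came from 48 female mice of the line C57BL/6NTac-Brd1, aged 8 to 11 weeks, with 8 mice in each of 6 groups. WT mice and *Brd1*+/- mice, which carry a targeted deletion in 1 of their copies of *Brd1*, a gene for a bromodomain protein of histone acetyltransferase complexes, were each given saline vehicle, IMN (imipramine at 10 mg/kg) or FLX (fluoxetine at 5 mg/kg). All of these mice had been through behavioural tests, and the amygdala was punched from frozen, sectioned brain. The study asked how reduced *Brd1* expression alters gene expression in the brain and what antidepressants do to it.

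Mitochondrial DNA is transcribed from both strands as long precursors, and most mRNAs and both rRNAs in them are flanked by tRNAs, whose excision releases the neighbouring RNAs. The mRNAs encode subunits of respiratory complexes I, III, IV and V, and the rRNAs and tRNAs serve the ribosomes that translate them inside the organelle. Neurons depend on this system for most of their ATP.

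Levels were given as TPM, a share of each library's transcripts corrected for gene length. TPM retains no read number, so library depth is unknown here. A gene of 59 to 75 bases, the lengths of the tRNA genes, has few places for a read, and how many reads lie behind its TPM is unknown. The TPM of a tRNA gene also does not tell the excised tRNA from uncut precursor. Levels of mature tRNA are therefore not read from these values. None of the 37 genes was listed at 0 in any library.

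The 6 tRNA genes that passed the test in at least 1 comparison are shown first, because the differences between groups rest on them. Each sequence is written 5′ to 3′ as DNA from the GENCODE M21 transcripts of GRCm38, in lower case with the anticodon in capitals.
mt-Tg: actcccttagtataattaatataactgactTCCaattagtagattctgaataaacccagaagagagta
mt-Tr: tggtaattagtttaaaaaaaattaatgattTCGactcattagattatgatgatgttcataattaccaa
mt-Th: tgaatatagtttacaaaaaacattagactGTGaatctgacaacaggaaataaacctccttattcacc
mt-Ts2: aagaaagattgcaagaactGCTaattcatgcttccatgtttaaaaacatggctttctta
mt-Tl2: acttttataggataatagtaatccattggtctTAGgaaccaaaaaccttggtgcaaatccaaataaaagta
mt-Tp: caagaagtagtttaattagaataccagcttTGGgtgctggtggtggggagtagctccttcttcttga
These are the tRNAs for glycine (*mt-Tg*, chrM:9391-9458), arginine (*mt-Tr*, chrM:9808-9875), histidine (*mt-Th*, chrM:11546-11612), serine at AGT and AGC codons (*mt-Ts2*, chrM:11613-11671), leucine at CTN codons (*mt-Tl2*, chrM:11671-11741) and proline (*mt-Tp*, chrM:15356-15422). The first 5 lie on the forward strand and *mt-Tp* on the reverse strand. *mt-Tg* and *mt-Tr* flank *mt-Nd3*, while *mt-Th*, *mt-Ts2* and *mt-Tl2* follow each other without a gap between *mt-Nd4* and *mt-Nd5*. *mt-Tp* is the last gene before the control region. The codons they read differ in use: of the 3790 codons of the 13 mRNAs, *mt-Tl2* reads 11.7%, *mt-Tg* 5.59%, *mt-Tp* 5.17%, *mt-Th* 2.56%, *mt-Tr* 1.69% and *mt-Ts2* 1.29%.

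The 37 genes together held 13.7% ± 2.23 of all TPM (SD, n = 48 libraries), between 10.1% and 18.9% in a library. The mRNAs held 11.8%, the rRNAs 1.05% and the tRNAs 0.776%. Group means of the whole set lay between 12.98% (WT FLX) and 14.2% (*Brd1*+/- FLX), a spread smaller than the SD within any group, the smallest of which was 1.37%. Among the mRNAs *mt-Co1*, the catalytic subunit of cytochrome c oxidase, was highest, at a mean of 19798 TPM over the 48 libraries. *mt-Nd3*, a small subunit of complex I, was lowest at 1988 TPM. *mt-Cytb* of complex III stood at 14528 TPM, and the remaining mRNAs lay between 4659 TPM (*mt-Nd4l*) and 10506 TPM (*mt-Nd1*). *mt-Rnr1* (the small ribosomal RNA) had 4942 TPM and *mt-Rnr2* (the large one) had 5519 TPM.

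The tRNA genes ranged more widely than the mRNAs, on the same per-length scale. *mt-Te*, for glutamate, was the highest at a mean of 1896 TPM, followed by *mt-Ts1*, for serine at TCN codons, at 1499 TPM. *mt-Ts2* was the lowest at 4.83 TPM, although it stands directly beside *mt-Tl2* at 123 TPM. The 8 tRNA genes of the reverse strand held 0.572% of TPM and the 14 of the forward strand 0.204%. The lowest reverse-strand tRNA, *mt-Tq* for glutamine, had a mean of 189 TPM, and 12 of the 14 forward-strand tRNAs had means below it. The sole reverse-strand mRNA, *mt-Nd6* of complex I, had 6664 TPM, near its forward-strand neighbour *mt-Nd5* at 6016 TPM. Strand handling in the counting is not given in the sources used here, so reads of a gene and of the precursor from the other strand cannot be told apart.

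**Figure D1:**
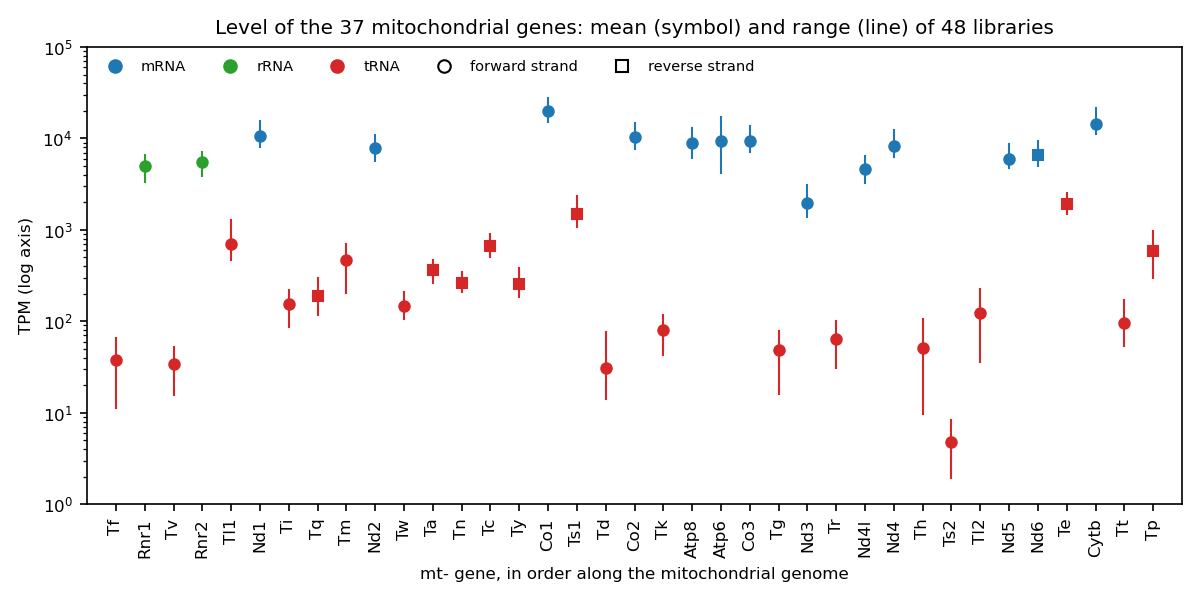
Level of each of the 37 mitochondrial genes in TPM (log axis), in their order along the genome, with symbols for the mean and lines for the lowest to highest of 48 libraries; circles are forward-strand and squares reverse-strand genes, coloured by class. The mRNAs and rRNAs form a band from 1988 to 19798 TPM, and the tRNAs spread below it from 4.83 TPM (*mt-Ts2*) to 1896 TPM (*mt-Te*), with the reverse-strand tRNAs in the upper part.

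Some of these values are uncertain because reads can match more than 1 gene. *mt-Atp8* and *mt-Atp6* share 43 bases on the same strand, *mt-Nd5* and *mt-Nd6* share 14 on opposite strands, and *mt-Nd4l* and *mt-Nd4* share 7. The tRNA genes *mt-Ts2* and *mt-Tl2* share 1 base, and *mt-Th* ends directly before *mt-Ts2*. Annotated nuclear pseudogenes matched 9 of the 13 mRNAs over at least 50 bases at an identity of at least 95%. No tRNA or rRNA had such a match among the annotated transcripts, and sequence outside them was not searched. A stretch of chromosome 1 alone held copies of 7 mRNAs, and these copies together had 5.86% of all TPM. Its copies *Gm28661* (mt-Co2), *Gm28437* (mt-Co3) and *Gm10222* (mt-Nd4l) were identical to the mitochondrial gene over the aligned bases. The mean levels of these 3 lay near those of the genes they match, with 10368 TPM for *Gm28661* against 10361 TPM for *mt-Co2*. For other copies, also identical over the aligned bases, they did not, with 11752 TPM for *Gm10925* against 9485 TPM for *mt-Atp6* and 6013 TPM for *Gm28439* against 8367 TPM for *mt-Nd4*. How reads were divided between gene and copy is uncertain. *mt-Tg* and *mt-Tr* lie between *mt-Co3*, *mt-Nd3* and *mt-Nd4l*, which all have copies on that stretch of chromosome 1. Whether the stretch also holds copies of these tRNAs was not tested.

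*mt-Atp6*, a subunit of ATP synthase, was split between libraries, a pattern singled out after its values were seen. Its ratio to *mt-Atp8*, its overlapping neighbour, fell in separate clusters, from 0.593 to 0.677 in 16 libraries and from 0.980 to 1.46 in 32. The lower cluster held 1 WT vehicle, 0 WT IMN, 3 WT FLX, 1 *Brd1*+/- vehicle, 5 *Brd1*+/- IMN and 6 *Brd1*+/- FLX libraries. In those 16 libraries the ratio of *mt-Atp6* to its identical nuclear copy *Gm10925* was 0.481 ± 0.000903 (SD), within 0.480 to 0.483, and in the other 32 it lay between 0.720 and 0.965. The ratio of *Gm10925* to *mt-Atp8* did not fall in separate ranges, at 1.23 to 1.40 and 1.20 to 1.51. Accordingly no difference in *mt-Atp6* between groups is read from these data, and its part in other results was not tested.

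**Figure D2:**
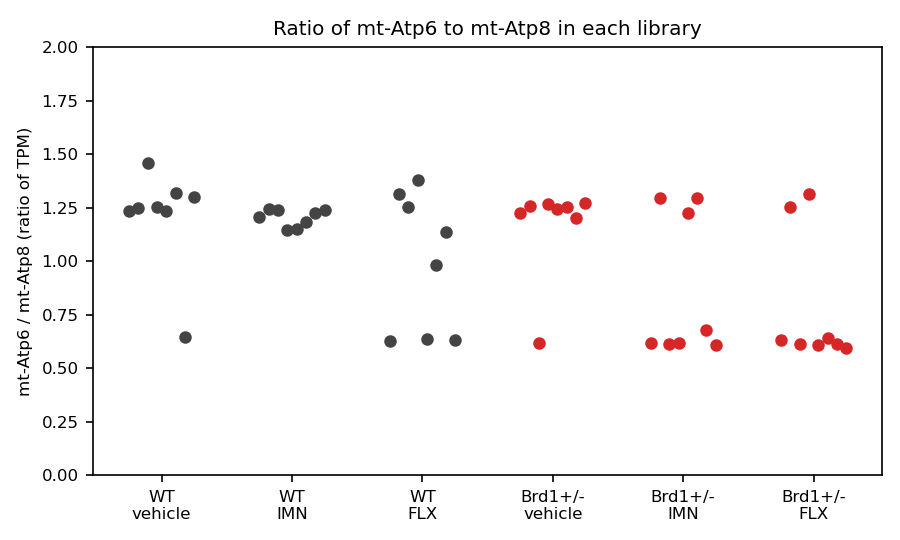
Ratio of the TPM of *mt-Atp6* to that of *mt-Atp8* in each library (vertical axis, no unit) by group, with WT in grey and *Brd1*+/- in red. Points form a band from 0.593 to 0.677 and another from 0.980 to 1.46, and all 8 WT IMN libraries lie in the upper band.

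Facts of the tissue and of the libraries bear on the comparisons. All 8 amygdala and neuron markers examined had a mean of at least 1 TPM. Markers of neighbouring tissue varied far more between libraries than the mitochondrial genes did: the summed level of 8 striatal projection neuron markers ranged from 160 to 11240 TPM, that of 8 oligodendrocyte markers from 718 to 17992 TPM and that of 6 choroid plexus markers from 7.63 to 29588 TPM. The *Brd1*+/- vehicle libraries listed 26271 ± 802 genes above 0 (SD, n = 8), against group means of 24667 to 25173 elsewhere, and in them 5712 nuclear genes for small RNAs held 0.865% ± 0.0995 of TPM, against group means of 0.693% to 0.756% elsewhere. In the vehicle arm *Brd1* itself averaged 35.6 ± 5.09 TPM over WT and 26.0 ± 2.90 TPM over *Brd1*+/- libraries (SD, n = 8 each), which missed the threshold (limma adjusted *p* = 0.0512, log2 −0.45). It missed it in IMN mice (log2 −0.68, limma adjusted *p* = 0.102) and was called lower in FLX mice (log2 −0.49, limma adjusted *p* = 0.0362). The sample codes of vehicle mice and of drug-treated mice did not overlap, so a difference that follows the codes and a difference between drug and vehicle cannot be told apart.

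In vehicle mice 5 of the 37 genes differed between genotypes, and all 5 were tRNAs. *mt-Th*, *mt-Tl2*, *mt-Ts2* and *mt-Tg* were higher and *mt-Tp* was lower in *Brd1*+/- mice (limma on log2(TPM + 0.1), adjusted *p* under 0.05). Of all 24279 genes tested, 0.708% were called, with 0.688% called higher and 0.0206% called lower. No mRNA or rRNA was called.

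*mt-Th*, the tRNA for histidine, ranged from 27.6 to 61.6 TPM in WT vehicle mice (median 35.2) and from 70.6 to 106.8 TPM in *Brd1*+/- vehicle mice (median 95.4). The lowest *Brd1*+/- library exceeded the highest WT library. The difference was 1.21 ± 0.16 on the log2 scale (SE, limma adjusted *p* = 0.000552), or 2.31-fold. For *mt-Tl2*, the leucine tRNA, WT libraries spanned 58.6 to 135.6 TPM (median 104) and *Brd1*+/- libraries 141 to 223 TPM (median 212), again without overlap (log2 1.06 ± 0.16, limma adjusted *p* = 0.00182). *mt-Ts2*, at far lower levels, spanned 2.47 to 5.24 TPM (median 4.09) against 5.79 to 8.28 TPM (median 7.24), also without overlap (log2 0.83 ± 0.16, limma adjusted *p* = 0.0140). These 3 tRNAs are neighbours, and they are the 3 members whose libraries all lay higher in *Brd1*+/- vehicle mice. They have no gap between them, so a read can span more than 1 of them. Whether their differences are separate was not tested. Groups that do not overlap were found for 0.453% of all genes in this comparison.

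*mt-Tg*, the glycine tRNA, overlapped between genotypes, with 25.7 to 54.2 TPM in WT vehicle mice (median 37.2) and 46.1 to 76.1 TPM in *Brd1*+/- vehicle mice (median 65.3). Its difference of 0.74 ± 0.15 (SE, limma adjusted *p* = 0.0252) had the highest adjusted *p* of the 5. *mt-Tg* was not called in 8 of the 16 fits that left out a single library (adjusted *p* from 0.0576 to 0.0829 in limma), nor with a filter at a TPM of 1, after median-ratio scaling or after scaling to the 13 mitochondrial mRNAs. *mt-Tr*, the arginine tRNA on the other side of *mt-Nd3*, had 39.1 to 73.9 TPM (median 54.0) against 57.2 to 96.0 TPM (median 75.0), which was not called (log2 0.49 ± 0.14, limma adjusted *p* = 0.186).

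*mt-Tp* went the other way. Its WT vehicle libraries spanned 532 to 730 TPM (median 609) and its *Brd1*+/- vehicle libraries 300 to 524 TPM (median 366), with no overlap. It fell by 0.69 ± 0.11 on the log2 scale (SE, limma adjusted *p* = 0.00307), 1.61-fold, and was 1 of 5 genes called lower in the whole table. Its forward-strand neighbour *mt-Tt*, the threonine tRNA, was not called (log2 0.31 ± 0.18, limma adjusted *p* = 0.708), nor was *mt-Cytb*, the mRNA before it.

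The vehicle calls varied with the model. With terms for the striatal, oligodendrocyte and choroid plexus markers 2 of the 5 were still called, *mt-Th* and *mt-Tp*, and *mt-Tl2* kept a difference of 1.03 with an adjusted *p* of 0.0594 in limma. With the replicate number as a block *mt-Th* and *mt-Tl2* were called, although these numbers were taken as names and not as a pairing. After scaling to the mitochondrial mRNAs *mt-Th*, *mt-Tl2* and *mt-Tp* were called. A sample-code term left the same 5 genes called. Since these are bulk punches, fewer cells of a type and less RNA per cell cannot be told apart. Summed oligodendrocyte markers ranged from 718 to 11721 TPM in WT and from 2453 to 17129 TPM in *Brd1*+/- vehicle mice, with all 8 markers at a mean of at least 1 TPM, and 0 of the 8 were called although all 8 had an unadjusted *p* under 0.05 in limma (median log2 difference 1.49). Of 6 microglia markers 3 had one too (median 0.28, 0 called). These marker levels, the larger number of genes above 0 and the larger share of nuclear small RNAs in the *Brd1*+/- vehicle libraries moved with these tRNAs, and, beyond the fit with marker terms, their part in the result was not tested. *Malat1*, a nuclear noncoding RNA that is no member and was chosen after its values were seen, moved likewise in vehicle mice, at a mean of 264 ± 55.0 TPM in WT libraries and of 797 ± 168 TPM in *Brd1*+/- libraries (SD, n = 8 each, log2 1.59, limma adjusted *p* = 1.15e-05).

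**Figure D3:**
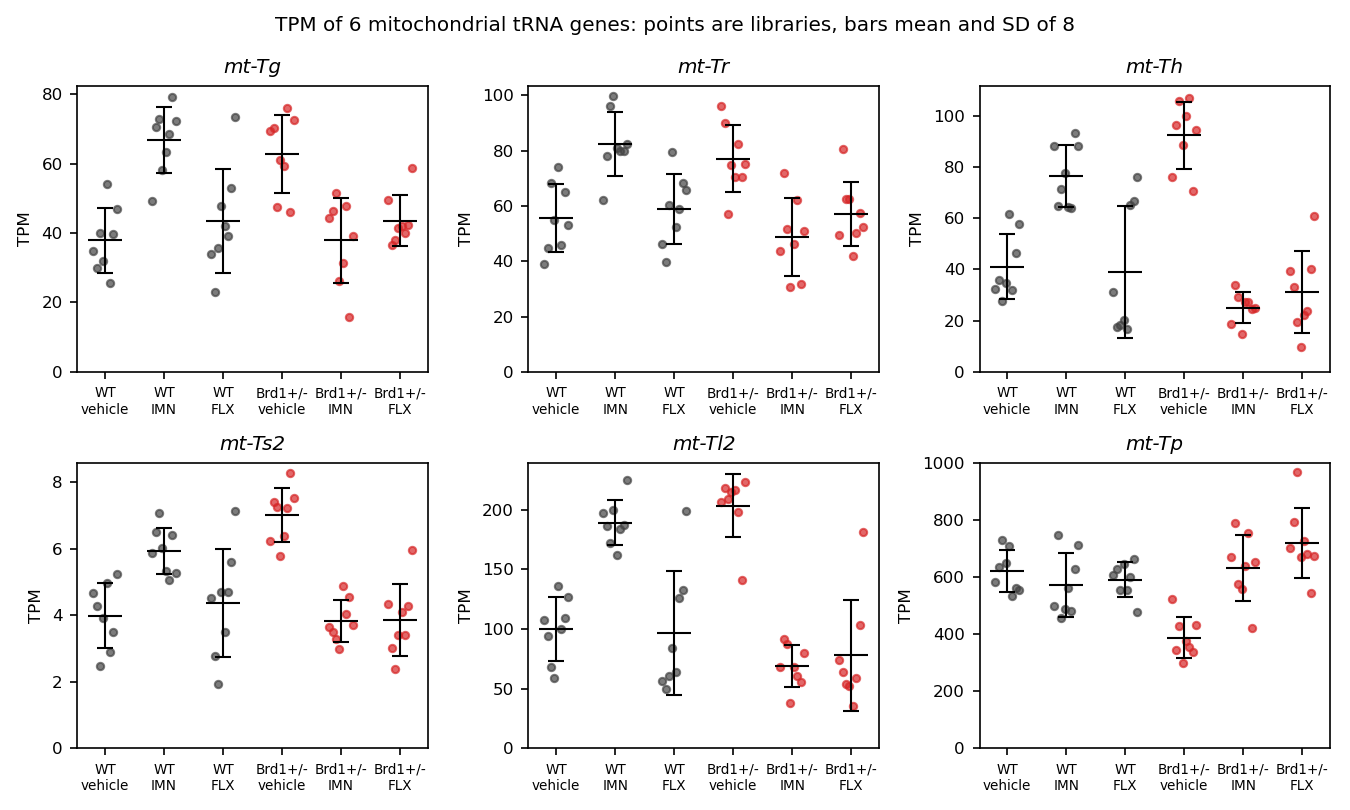
TPM of the 6 tRNA genes called in at least 1 comparison, by group, with points for libraries and bars for the mean and SD of 8; WT is grey and *Brd1*+/- red. *mt-Th* and *mt-Tl2* stand high in *Brd1*+/- vehicle and WT IMN mice, WT FLX libraries of *mt-Th* fall apart into 16.7 to 31.0 and 65.0 to 76.1 TPM, and *mt-Tp* is low in *Brd1*+/- vehicle mice.

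In IMN mice the genotype difference ran in the reverse direction. Here 2 of the 37 genes were called, *mt-Th* and *mt-Tl2*, both lower in *Brd1*+/- mice, and they were 2 of the 4 genes called in the whole table (0.017% of 23581, with 0.00848% called lower). *mt-Th* spanned 63.9 to 93.4 TPM in WT IMN mice (median 74.5) and 14.8 to 34.0 TPM in *Brd1*+/- IMN mice (median 26.1). It fell by 1.63 ± 0.15 on the log2 scale (SE, limma adjusted *p* = 0.000151), 3.09-fold. *mt-Tl2* spanned 162 to 224 TPM (median 187) and 38.2 to 91.3 TPM (median 68.0), and fell by 1.50 ± 0.15 (SE, limma adjusted *p* = 0.000156). Neither gene overlapped between the genotypes. *mt-Ts2* did not overlap either, at 5.06 to 7.07 TPM against 2.98 to 4.87 TPM, but was not called (log2 −0.63 ± 0.13, limma adjusted *p* = 0.396). Across all genes 0.0382% did not overlap. *mt-Tr* (log2 −0.80, limma adjusted *p* = 0.396) and *mt-Tg* (log2 −0.89, limma adjusted *p* = 0.585) lay lower without being called. *mt-Tp* ranged from 456 to 747 TPM in WT and 421 to 789 TPM in *Brd1*+/- IMN mice, ranges that overlapped almost wholly (log2 0.15 ± 0.14, limma adjusted *p* = 1.00).

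In FLX mice no mitochondrial gene was called between genotypes, while 1.54% of 23635 genes were, and all 37 overlapped, where 0.368% of all genes did not. A single member, *mt-Tp*, had an unadjusted *p* under 0.05 (16.6% of all genes did), with 477 to 663 TPM in WT and 544 to 968 TPM in *Brd1*+/- FLX mice (log2 0.27 ± 0.10, limma adjusted *p* = 0.179). *mt-Th* ranged widely within these groups, from 16.7 to 76.1 TPM in WT FLX mice (median 25.7) and from 9.75 to 61.0 TPM in *Brd1*+/- FLX mice (median 28.6), and its difference of −0.22 had an SE of 0.41.

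The WT FLX libraries of *mt-Th* separated by the range of their sample codes. The 3 with lower codes had 65.0 to 76.1 TPM and the 5 with higher codes 16.7 to 31.0 TPM. *mt-Tl2* separated in the same libraries, at 125.6 to 198 TPM and 49.7 to 84.2 TPM. What the codes stand for is not given in the sources used here. Codes were divided at a value among drug-treated mice and at another among vehicle mice, so values within a range compare mice of the same arm only. Within the higher codes of each drug arm, every WT code exceeded every *Brd1*+/- code. Genotype and code cannot be told apart there. The genotype difference of *mt-Th* in FLX mice was −1.39 on the log2 scale within lower codes and 0.54 within higher codes. In the other groups the ranges overlapped, and the vehicle genotype difference of *mt-Th* was 1.08 in lower and 1.29 in higher codes.

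**Figure D4:**
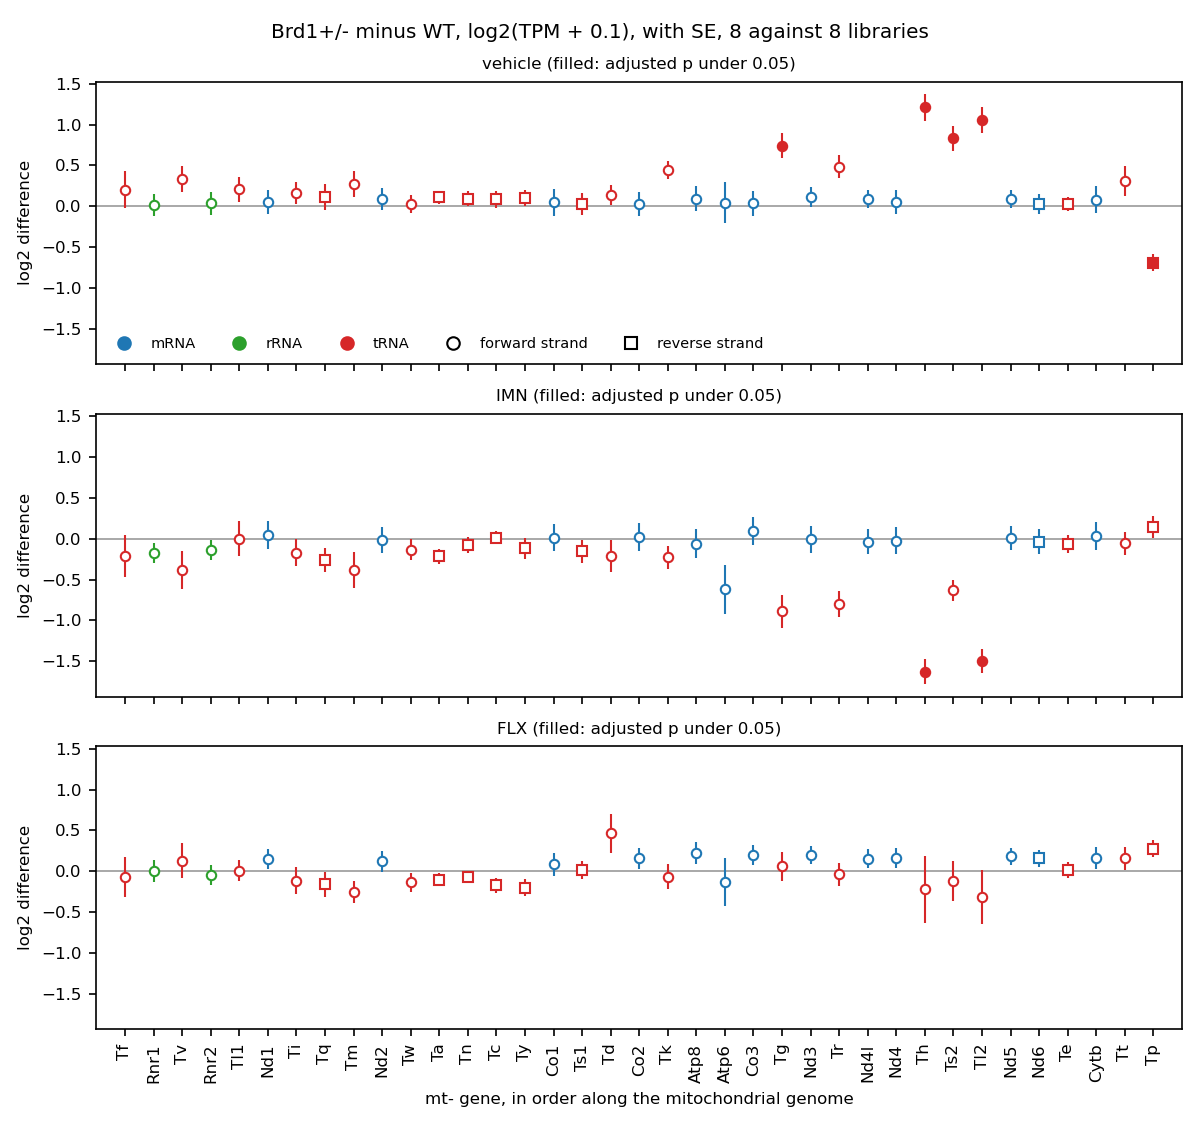
Log2 difference in log2(TPM + 0.1) between *Brd1*+/- and WT mice for the 37 genes in genome order, with SE bars, in vehicle, IMN and FLX mice (8 against 8 libraries each); filled symbols have an adjusted *p* under 0.05. The mRNAs and rRNAs lie near 0 in vehicle mice, whereas *mt-Th* moves from 1.21 in vehicle to −1.63 in IMN mice and *mt-Tp* stands alone below 0 in vehicle mice.

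Each drug was compared with vehicle within a genotype, and the comparisons of a genotype share its vehicle libraries. In all of them a drug difference cannot be told from a difference that follows the sample codes. In *Brd1*+/- mice 4 of the 37 genes were called between IMN and vehicle. *mt-Th*, *mt-Tl2* and *mt-Ts2* were lower and *mt-Tp* was higher under IMN. Of 24225 genes 0.776% were called, 0.0165% higher and 0.76% lower. *mt-Th* fell by 1.90 ± 0.15 on the log2 scale (SE, limma adjusted *p* = 1.27e-06), 3.73-fold. *mt-Tl2* fell by 1.60 ± 0.15 (SE, limma adjusted *p* = 1.77e-05) and *mt-Ts2* by 0.87 ± 0.13 (SE, limma adjusted *p* = 0.00129). For all 3 every IMN library lay below every vehicle library, as did 0.466% of all genes in either direction. *mt-Tp* rose by 0.70 ± 0.13 (SE, limma adjusted *p* = 0.0127), from a vehicle median of 366 TPM to an IMN median of 644 TPM, with overlap. After scaling to the mitochondrial mRNAs *mt-Ts2* was not called (adjusted *p* = 0.167 in limma), and after median-ratio scaling *mt-Tp* was not (0.0653).

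Markers of other cells moved in the same comparison. All 8 oligodendrocyte markers had an unadjusted *p* under 0.05 in limma (median log2 difference −1.02, 0 called), as did 4 of 5 endothelium markers (median −0.42, 0 called) and 3 of 6 microglia markers (median −0.31, 0 called). Summed oligodendrocyte markers ranged from 2453 to 17129 TPM in vehicle and from 1235 to 7199 TPM in IMN libraries of *Brd1*+/- mice, endothelium markers from 97.6 to 140.9 and from 74.7 to 112 TPM, and microglia markers from 256 to 523 and from 230 to 305 TPM. With terms for the striatal, oligodendrocyte and choroid plexus markers the 4 tRNAs were still called, and *mt-Tr* in addition. The part of the endothelium and microglia markers was not tested.

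Between FLX and vehicle the same 4 genes were called in *Brd1*+/- mice, in the same directions. Of 24336 genes 0.731% were called, 0.0123% higher and 0.719% lower. *mt-Th* fell by 1.73 ± 0.27 (SE, limma adjusted *p* = 0.0031), *mt-Tl2* by 1.54 ± 0.24 (SE, limma adjusted *p* = 0.00315) and *mt-Ts2* by 0.88 ± 0.16 (SE, limma adjusted *p* = 0.0101). The libraries of *mt-Th* did not overlap, whereas 1 *Brd1*+/- FLX library of *mt-Tl2* reached 181 TPM and entered the vehicle range. *mt-Tp* rose by 0.90 ± 0.12 (SE, limma adjusted *p* = 0.000819), from at most 524 TPM in vehicle to at least 544 TPM in FLX libraries. Groups that do not overlap made up 0.505% of all genes. A further 7 tRNAs, *mt-Ta*, *mt-Tn*, *mt-Tc*, *mt-Ty*, *mt-Tk*, *mt-Tg* and *mt-Tr*, had an unadjusted *p* under 0.05 (6.94% of all genes did), all with lower values under FLX, and 0 of them were called. *mt-Ts2* was not called after scaling to the mitochondrial mRNAs (adjusted *p* = 0.144 in limma) or with the replicate number as a block (0.0870). Of the 8 oligodendrocyte markers 0 had an unadjusted *p* under 0.05 here in limma (median log2 difference −0.81), and the 4 tRNAs were still called with the marker terms. *Malat1* again moved with *mt-Th*, by −1.66 under IMN (limma adjusted *p* = 1.71e-05) and −1.51 under FLX (limma adjusted *p* = 3.7e-05).

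In WT mice neither drug gave a call among the 37 genes. Under IMN 0 of 23644 genes were called with limma, and 4.58% had an unadjusted *p* under 0.05. Among the members 8 did, all tRNAs with higher values under IMN, among them *mt-Tl2* (log2 0.96 ± 0.15, limma adjusted *p* = 0.168), *mt-Th* (log2 0.94 ± 0.16, limma adjusted *p* = 0.206) and *mt-Tg* (log2 0.84 ± 0.14, limma adjusted *p* = 0.206). The lowest WT IMN library had 63.9 TPM of *mt-Th* and 162 TPM of *mt-Tl2*, above the highest WT vehicle libraries at 61.6 and 135.6 TPM. Such separation held for 0.0211% of all genes, 5 genes in all. Without WT vehicle replicate 5, whose level of *mt-Th* was the highest of its group, 3 members were called, *mt-Tg*, *mt-Th* and *mt-Tl2*. *mt-Tp* differed little between WT IMN and WT vehicle mice (log2 −0.13 ± 0.12, limma adjusted *p* = 0.970).

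Under FLX in WT mice *mt-Tm*, the methionine tRNA, alone had an unadjusted *p* under 0.05 (log2 0.34 ± 0.14, limma adjusted *p* = 0.236), where 16.8% of all genes did and 0.335% were called. All 37 genes overlapped between these groups, where 0.153% of all genes did not.

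**Figure D5:**
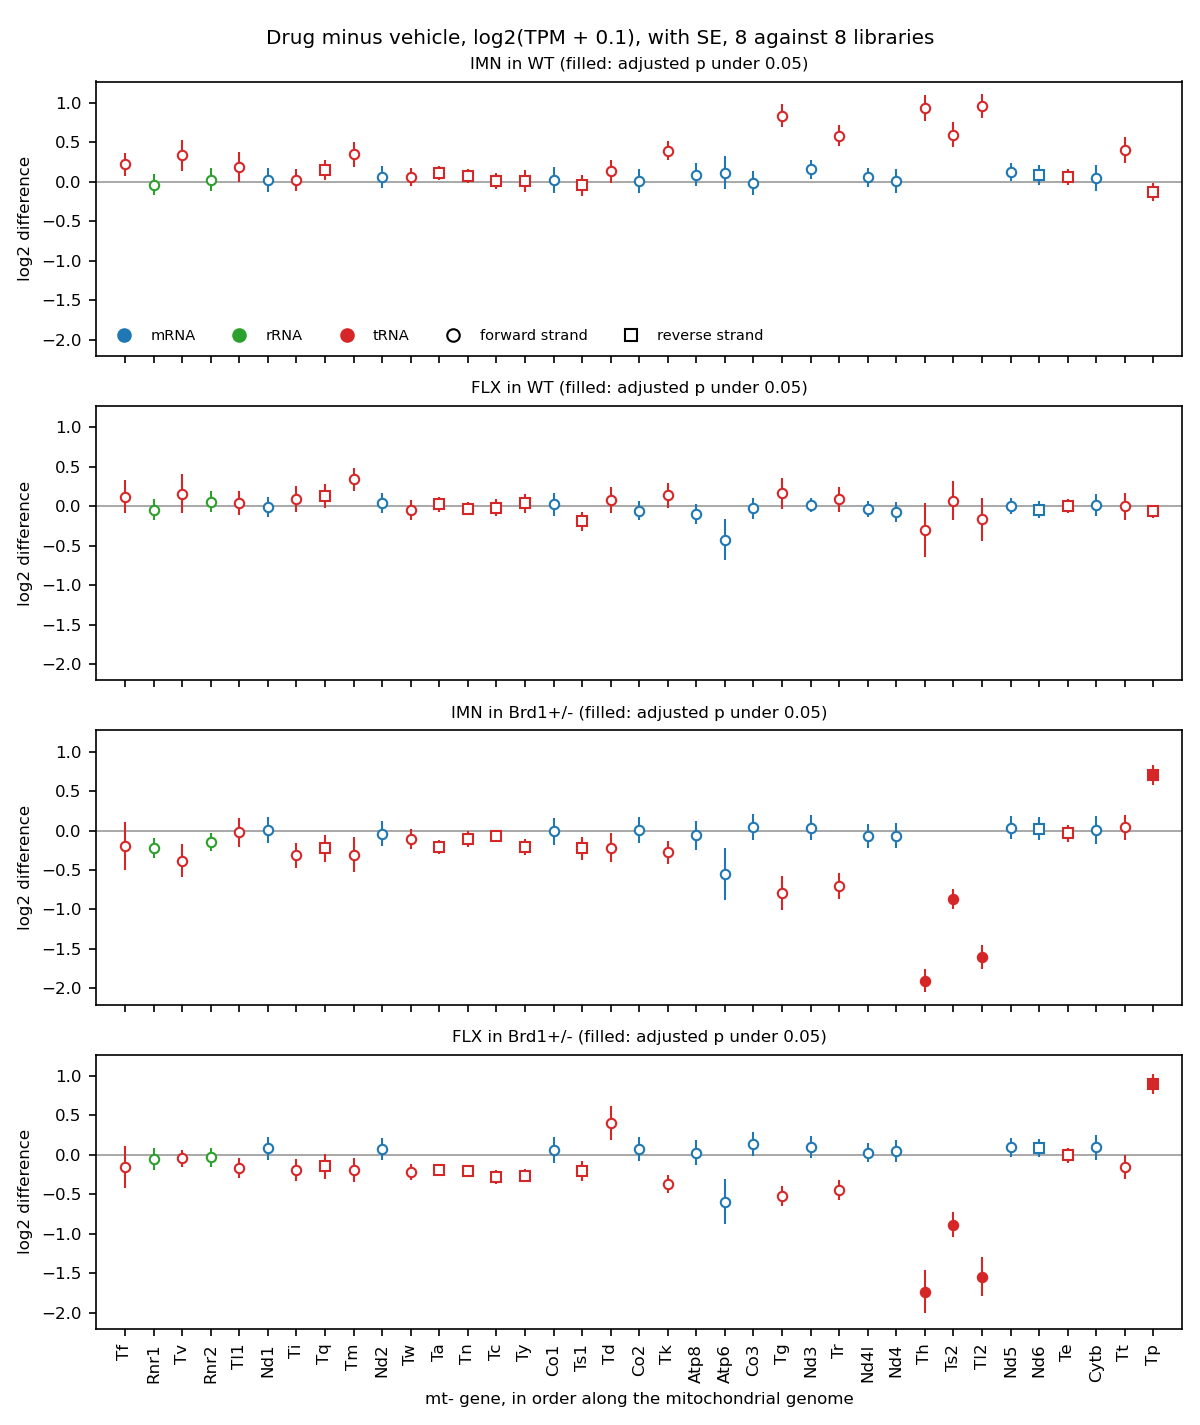
Log2 difference in log2(TPM + 0.1) between drug-treated and vehicle mice for the 37 genes in genome order, with SE bars, for IMN and FLX in WT and *Brd1*+/- mice (8 against 8 libraries each); filled symbols have an adjusted *p* under 0.05. In both *Brd1*+/- panels *mt-Th*, *mt-Ts2* and *mt-Tl2* are filled below 0 and *mt-Tp* is filled above 0, and no symbol is filled in the WT panels.

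The drugs were also set against each other. In WT mice 7 members had an unadjusted *p* under 0.05, all with lower values under FLX than under IMN. Of these 1 was *mt-Atp6*, from which no group difference is read, as described. The other 6 were tRNAs, with *mt-Th* (log2 −1.24 ± 0.32) and *mt-Tl2* (log2 −1.13 ± 0.24) at the lowest values. None of the 7 was called by limma at an adjusted *p* of 0.858, as 0 of 23501 genes were, with 4.78% at an unadjusted *p* under 0.05. The differences in *mt-Th* were −0.14 within lower and −1.89 within higher codes. In *Brd1*+/- mice 2 members, *mt-Tc* and *mt-Td*, had an unadjusted *p* under 0.05 (2.99% of all genes did), and 0 of 23724 genes were called.

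The dependence of the IMN difference on genotype was tested as an interaction over 4 groups. Of the 37 genes 6 were called, against 0.536% of 26673 genes. Of the 6, 5 were called with a lower IMN difference in *Brd1*+/- mice, as 0.532% of all genes were. The IMN difference was lower in *Brd1*+/- than in WT mice by 2.84 ± 0.22 on the log2 scale for *mt-Th* (SE, limma adjusted *p* = 1.44e-09) and by 2.56 ± 0.22 for *mt-Tl2* (SE, limma adjusted *p* = 7.55e-09). *mt-Tg* (log2 −1.63 ± 0.26, limma adjusted *p* = 0.000403), *mt-Ts2* (log2 −1.46 ± 0.19, limma adjusted *p* = 2.53e-05) and *mt-Tr* (log2 −1.29 ± 0.21, limma adjusted *p* = 0.000821) followed. *mt-Tp* was the sole member, and the sole gene of the table (0.00375% of genes), called with a higher difference in *Brd1*+/- mice (log2 0.84 ± 0.18, limma adjusted *p* = 0.0133). *mt-Tp* was not called after median-ratio scaling (adjusted *p* = 0.114 in limma) or with a filter at a TPM of 1 (0.0550). All 8 oligodendrocyte markers (median log2 interaction −1.95) and 5 of 6 microglia markers (median −0.47) had an unadjusted *p* under 0.05 in limma, with 0 called. The same 6 tRNAs were called with terms for the striatal, oligodendrocyte and choroid plexus markers, and the part of the microglia markers was not tested.

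The FLX interaction called 1 member, *mt-Tp* (log2 0.96 ± 0.15, limma adjusted *p* = 0.000545), against 1.71% of 26657 genes, 0.176% called with a higher FLX difference in *Brd1*+/- mice. All genes together had a median FLX interaction of −0.10 (log2), and −0.02 after median-ratio scaling, so the *mt-Tp* value stood above a background that itself lay below 0. *mt-Tl2* (log2 −1.38 ± 0.38, limma adjusted *p* = 0.0541), *mt-Ts2* (log2 −0.95 ± 0.29, limma adjusted *p* = 0.0810) and *mt-Th* (log2 −1.43 ± 0.45, limma adjusted *p* = 0.0979) missed the threshold, beside the wide spread of the WT FLX libraries. All 8 oligodendrocyte markers had an unadjusted *p* under 0.05 in this contrast too (median log2 −2.01, 0 called by limma), and with the marker terms *mt-Tp* was the member called.

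Ratios of the called tRNAs to their neighbouring mRNAs within each library are given as a description, without a test. *mt-Th* amounted to 1.10% ± 0.213 of the TPM of *mt-Nd4*, the complex I mRNA directly before it, in *Brd1*+/- vehicle mice and to 0.307% ± 0.0655 in *Brd1*+/- IMN mice (SD, n = 8 each). In WT mice it amounted to 0.515% ± 0.188 with vehicle and 0.939% ± 0.220 with IMN. *mt-Tl2* relative to *mt-Nd5*, directly after it, went from 3.40% ± 0.403 to 1.11% ± 0.240 in *Brd1*+/- mice. The ratio of *mt-Th* to *mt-Tl2* varied less, with group means between 0.372 and 0.457 and a range of 0.188 to 0.622 over 48 libraries. *mt-Tp* was 2.66% ± 0.358 of *mt-Cytb* in *Brd1*+/- vehicle mice, with a highest library of 3.34%, and 4.55% ± 0.674 in WT vehicle mice, with a lowest library of 3.40%.

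No mRNA or rRNA was called in any of the 11 comparisons. In vehicle mice the 13 mRNA differences between genotypes lay between 0.03 and 0.11 on the log2 scale, with a smallest limma adjusted *p* of 0.882 and a median of 0.06 beside 0.03 for all genes tested. *mt-Co1* had group medians between 17899 and 19786 TPM, and its difference between genotypes in vehicle mice was 0.05 ± 0.17. Apart from *mt-Atp6*, whose values are uncertain as described, the ratio of the highest to the lowest group mean of an mRNA was at most 1.18 (*mt-Atp8*) and at least 1.08 (*mt-Co1*). For *mt-Rnr1* and *mt-Rnr2* it was 1.17 and 1.12. For the tRNAs it ranged from 1.04 (*mt-Te*) to 3.68 (*mt-Th*), with *mt-Tl2* at 2.96, *mt-Tp* at 1.86, *mt-Ts2* at 1.83, *mt-Tg* at 1.76, *mt-Tr* at 1.69 and *mt-Td*, the aspartate tRNA, at 1.60. *mt-Td* was not called in any comparison. Its largest difference was between FLX and IMN in *Brd1*+/- mice (log2 0.62 ± 0.26, limma adjusted *p* = 1.00).

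By strand, 4 of 28 forward-strand genes and 1 of 9 reverse-strand genes were called between genotypes in vehicle mice. The reverse-strand tRNAs other than *mt-Tp* lay between 0.03 (*mt-Te*) and 0.11 (*mt-Tq*) on the log2 scale in that comparison and the forward-strand tRNAs between 0.03 (*mt-Tw*) and 1.21 (*mt-Th*). The forward-strand tRNAs that flank the rRNAs, *mt-Tf*, *mt-Tv* and *mt-Tl1*, were not called in any comparison, and neither was any of the reverse-strand tRNAs *mt-Ta*, *mt-Tn*, *mt-Tc* and *mt-Ty* between *mt-Nd2* and *mt-Co1*.

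Nuclear genes that act on mitochondrial RNA were followed alongside. They were 20 genes for mitochondrial aminoacyl-tRNA synthetases, 19 for transcription and replication of mitochondrial DNA and 39 for processing, stability and modification of mitochondrial RNA. Of these 78 genes 0 were called in any of the 11 comparisons, where 0% to 1.71% of all genes were. Between 1 and 11 of them had an unadjusted *p* under 0.05 in limma. The 11 were found for FLX in WT mice, where 16.8% of all genes had one, and the 1 for FLX in *Brd1*+/- mice, where 6.94% did. *Hars2*, which charges *mt-Th* with histidine, stood at 63.7 ± 7.58 TPM in WT libraries and at 49.8 ± 9.52 TPM in *Brd1*+/- libraries of the vehicle arm (SD, n = 8 each, log2 −0.37, limma adjusted *p* = 0.247). *Lars2* for leucine had 19.9 ± 8.06 and 17.9 ± 3.74 TPM, and *Pars2* for proline 4.52 ± 0.864 and 5.46 ± 1.60 TPM in the same groups. *Polrmt*, the mitochondrial RNA polymerase, had group means from 29.3 to 40.3 TPM and *Tfam*, which packages mitochondrial DNA and starts its transcription, from 20.6 to 27.0 TPM. *Elac2* and *Trmt10c*, which take part in cutting tRNAs out of the precursor, had group means of 27.3 to 29.5 TPM and 9.15 to 10.4 TPM, and *Lrpprc*, which stabilises mitochondrial mRNAs, of 52.0 to 57.6 TPM. Over the 11 comparisons the differences of these 8 genes lay between −0.54 and 0.47 on the log2 scale, with a smallest limma adjusted *p* of 0.105.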

How the data were processed

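Amygdala punches of 48 mice in 6 groups of 8 were sequenced, and groups and replicate numbers were taken from the labels. Per the labels and the study's methods, the authors extracted RNA with a Maxwell LEV simplyRNA kit, prepared TruSeq libraries, and processed single-end reads with FastQC, Trimmomatic, HISAT2 2.1.0 (GRCm38) and StringTie 1.3.4. The deposited values are TPM (length-scaled transcript shares) for 52636 genes, and each library summed to between 999524 and 999772. TPM holds no read numbers, so library depth is unknown, no counting interval was computed, and the count test of the study's methods was replaced by limma 3.58.1 in R 4.3.3.

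Values were tested as log2(TPM + 0.1), keeping genes that reached a TPM of 0.1 in 8 or more libraries of the fit, which held only the groups compared, with a mean-variance trend and a two-sided test. Adjusted *p* is Benjamini-Hochberg over all genes tested, and genes under 0.05 were called. Fold changes on this scale understate the change of low genes. There were 11 comparisons: genotype within each treatment, each drug within each genotype, drug against drug within each genotype, and both interactions.

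Positions and sequences came from GENCODE M21 (GRCm38), which matched 52489 gene IDs. Nuclear copies were sought with blastn 2.17.0 among annotated transcripts only, at an identity of at least 95% over at least 50 bases. Class shares, ratios and levels within sample-code ranges are descriptions without a test. Members called in at least 1 comparison, the highest and lowest member of each class, and 8 nuclear genes were named. The members and gene lists were chosen with earlier results of these data known. On data simulated for IMN against vehicle in WT mice, with 200 of 23644 genes changed, 131 were called, all in the right direction: 46.6% of 88 changed 2-fold and 80.4% of 112 changed 4-fold, with 7 unchanged genes called.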

Additional observations from a re-analysis of the deposited data

Results flagged for a closer look

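The interaction of genotype and drug differed from 0 for 6 tRNAs under IMN, at −1.63 for *mt-Tg*, −1.29 for *mt-Tr*, −2.84 for *mt-Th*, −1.46 for *mt-Ts2*, −2.56 for *mt-Tl2* and 0.84 for *mt-Tp* on the log2 scale, and for *mt-Tp* under FLX, at 0.96.

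Dixon's test was applied at its 95% critical value for 8 samples, which independent normal values exceed about 1 time in 20. Single libraries stood apart from the other 7 of their group in 23 of 222 gene and group pairs (10.4%). WT vehicle replicate 3 was the highest of its group in 12 of them, with 14459 TPM of *mt-Nd1*, 9926 of *mt-Nd2*, 27411 of *mt-Co1*, 14210 of *mt-Co2*, 11810 of *mt-Atp8*, 13634 of *mt-Co3*, 12408 of *mt-Nd4*, 6890 of *mt-Nd5*, 8432 of *mt-Nd6* and 21495 of *mt-Cytb*, and also 2361 of *mt-Ts1* and 2337 of *mt-Te*. In *Brd1*+/- FLX mice, replicate 2 was highest for *mt-Tl1* (1031 TPM), *mt-Tm* (695 TPM) and *mt-Ts1* (1960 TPM), and replicate 8 for *mt-Tl2* (181 TPM). WT IMN replicate 1 was lowest for *mt-Ta* (323 TPM) and *mt-Te* (1494 TPM), and *Brd1*+/- vehicle replicate 7 was lowest for *mt-Tl2* (141 TPM). WT vehicle replicate 5 was highest for *mt-Tn* (347 TPM) and *mt-Tt* (147 TPM), and in *Brd1*+/- IMN mice replicate 5 was highest for *mt-Ty* (326 TPM) and replicate 1 for *mt-Tt* (169 TPM). Genes of the same library are not independent, and TPM was used here without a log. The share of 10.4% is therefore not read as an excess.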

How the results depend on the processing

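Between genotypes in vehicle mice 5 members were called. There were 3 after scaling to the 13 mitochondrial mRNAs (*mt-Th*, *mt-Tl2*, *mt-Tp*), 2 with the replicate block (*mt-Th*, *mt-Tl2*) and 2 with terms for 3 marker lists, an alternative chosen after seeing the data (*mt-Th*, *mt-Tp*). The FLX interaction, with 1 member called, gave 3 in a single fit of all 48 libraries and 3 with the replicate block (each *mt-Ts2*, *mt-Tl2*, *mt-Tp*), 2 after scaling to the mRNAs and 2 with a sample-code term, whose ranges differ between vehicle and drug-treated mice. The cause was not tested. Leaving out single libraries gave 3 to 5 calls between genotypes in vehicle mice (3 without *Brd1*+/- vehicle replicate 8) and 0 to 3 for IMN in WT mice (3 without WT vehicle replicate 5). It was not run for the drug-against-drug comparisons and the interactions. Deviations of same-numbered libraries from their group means correlated above 0.1 in 2 to 6 of 8 pairs. Median correlations ran from -0.146 (FLX in WT) to 0.282 (IMN in *Brd1*+/-). The numbers were taken as names, although these values do not exclude a pairing. The study's methods describe litter-matched mice, and litter was not entered in any fit. Other counts of called members stayed within 1.5 times, and no direction reversed. Adding nuclear copies to their mitochondrial genes (also chosen after seeing the data) changed no call. It altered values of mRNAs only, so it could not test the calls, which are all tRNAs. *mt-Tg* in vehicle mice was not called with a filter at a TPM of 1 (limma adjusted *p* = 0.0902), after median-ratio scaling (0.0717), after scaling to the mRNAs (0.0671) or with the block (0.200). Since the depth of each library is unknown, the precision of low tRNA values such as those of *mt-Ts2* could not be judged from reads.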
